A study of Mus musculus with 76 samples.

Results

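Neurons around the suprachiasmatic nucleus (SCN), the small pair of hypothalamic nuclei that keep circadian time, make peptides that drive or restrain eating, and 10 genes for such peptides were followed through the SCN libraries of a mouse RNA-seq study. The genes were Hcrt, Pmch, Pomc, Agrp, Npy, Cartpt, Oxt, Crh, Trh and Gal, taken by name from the 38129 entries of the count table. All 10 had an entry and all 10 passed the filter on low counts, among 18133 genes tested in SCN.

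The study sequenced RNA from liver, heart and SCN in 76 libraries, of which the 24 from SCN are described here. One genotype was wild type (WT). The other, Bmal1-VIPKO (KO), lacks the clock factor Bmal1, gene symbol Arntl, in cells making vasoactive intestinal peptide (Vip), going by its name. They ate ad libitum (AL, food at all times) or under time-restricted feeding (TRF), and tissue was taken at circadian time (CT) 0 or 12. The 8 groups of feeding, genotype and time held 3 libraries each, named here by their title numbers (those of the 4 AL libraries with 3 digits are given with their group, as AL_WT_CT0_401). The feeding hours, the Cre line, strain, age and sex, the number of mice pooled in a library and the way the SCN was cut out are not given in the sources used here. Nothing states that the libraries of a group came from separate animals, so p-values measure the spread between these libraries.

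Total counts ran from 15183397 to 19018983 per SCN library. Levels are in CPM, counts scaled to a common library size. Arntl averaged 22.3 ± 2.41 CPM (SD, n = 12) in WT and 23.3 ± 3.08 (SD, n = 12) in KO, with overlapping ranges. Vip averaged 7.79 ± 5.67 CPM in WT and 0.494 ± 0.426 in KO (SD, n = 12 each). Of the markers that define SCN neurons, Avp (vasopressin) ran from 10.2 to 1333 CPM and was lowest in library 10. The summed level of 13 SCN markers ran from 143 CPM in library 10 to 1504 CPM in library 57. Avp weighed heavily in this sum, with a median of 561 CPM under AL beside 778 CPM for the sum. It also stands in the list of paraventricular and supraoptic markers used below, so the sum is no measure of SCN tissue alone. Libraries 1, 10 and AL_WT_CT0_401 had the lowest sums of SCN markers, at 276, 143 and 183 CPM, and summed levels of 9 striatal markers of 2013, 2314 and 986 CPM, against 279 to 719 CPM in all others but libraries 20 and 21, at 875 and 1003 CPM.

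These peptides are made by neurons of several hypothalamic nuclei. Orexin (Hcrt), which promotes waking and feeding, and melanin-concentrating hormone (Pmch), which promotes feeding and sleep, are made by intermingled neurons of the lateral hypothalamus. In the arcuate nucleus, Pomc neurons release melanocortin peptides that curb eating, while Agrp neurons, which also make neuropeptide Y (Npy), block the melanocortin receptors and drive it. Oxytocin (Oxt), corticotropin-releasing hormone (Crh) and thyrotropin-releasing hormone (Trh) are made by neurons of the paraventricular nucleus, and oxytocin also by the supraoptic nucleus. Cartpt and galanin (Gal) are made in several hypothalamic nuclei. None of the 10 is a defining peptide of SCN neurons. In bulk tissue, fewer cells of a type and less RNA per cell cannot be told apart.

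The promoters at hand were searched for 3 short motifs, and no motif stood in all of them. RefSeq promoters (build GRCm38.p6) were at hand for 8 of the 10, without Agrp and Crh, and were searched in the 250 bases before the start for 3 motifs on both strands: the TATA box TATAAA, the E-box CACGTG bound by clock factors, and the cAMP response element TGACGTCA. TATAAA stood in those of Hcrt, Pmch and Pomc, and it stands in 12.4% of all 32851 promoter windows of this length. The cAMP response element was found in Cartpt, 112 bases before the start, against 1.55% of all windows. No CACGTG was found in any of the 8 windows, against 6.02% of all. The last 120 bases before the start of Hcrt, Pmch and Pomc are shown because these 3 genes split the libraries most widely, and those of Oxt because it did not follow them. They are written 5′ to 3′ on the strand of the gene, with TATAAA in capitals.
Hcrt, chr11:100762932-100763051, minus strand: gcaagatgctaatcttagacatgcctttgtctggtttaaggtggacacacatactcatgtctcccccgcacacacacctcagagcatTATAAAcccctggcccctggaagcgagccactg
Pmch, chr10:88090952-88091071, plus strand: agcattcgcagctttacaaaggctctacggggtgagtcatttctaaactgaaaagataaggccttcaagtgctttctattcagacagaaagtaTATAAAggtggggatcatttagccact
Pomc, chr12:3954825-3954944, plus strand: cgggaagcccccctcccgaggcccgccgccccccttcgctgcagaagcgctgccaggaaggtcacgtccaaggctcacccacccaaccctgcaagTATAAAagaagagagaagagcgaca
Oxt, chr2:130576049-130576168, plus strand: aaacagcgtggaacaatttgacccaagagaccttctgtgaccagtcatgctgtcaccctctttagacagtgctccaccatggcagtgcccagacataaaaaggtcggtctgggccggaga
The TATA box began 33, 27 and 25 bases before the start in Hcrt, Pmch and Pomc. A match of letters is a description of the window and says nothing of what binds there. Only exact matches were counted, so the search does not show what else the promoters share.

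Hcrt (ENSMUSG00000045471, chromosome 11, 100761069 to 100762931, minus strand, GRCm38) ranged from nearly missing to abundant. Libraries 30, 38 and 11 lay between, at 3.52, 9.16 and 17.8 CPM. Under AL in WT, it stood at 9.16, 573 and 0.577 CPM in libraries 38, 39 and AL_WT_CT0_401 at CT0 and at 342, 532 and 139 CPM in libraries 47, 48 and AL_WT_CT12_404 at CT12. In AL KO, libraries 56, 57 and AL_KO_CT0_407 of CT0 held 292, 67.2 and 173 CPM, and libraries 65, 66 and AL_KO_CT12_410 of CT12 held 184, 92.4 and 137 CPM. Thus 10 of the 12 AL libraries were at 67.2 CPM or above, and both others came from WT at CT0.
Under TRF in WT, Hcrt was at 0.186, 0.504 and 0.529 CPM in libraries 1, 2 and 3 of CT0 and at 0.41, 17.8 and 0.262 CPM in libraries 10, 11 and 12 of CT12. In TRF KO, it was at 0.176, 0.333 and 322 CPM in libraries 20, 21 and 55 of CT0 and at 138, 234 and 3.52 CPM in libraries 28, 29 and 30 of CT12. Only 3 TRF libraries, all from KO mice, reached the range of the high AL libraries, and AL and TRF overlapped. Library 1 held 3 reads of Hcrt and library 55 held 5665.

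Pmch (ENSMUSG00000035383, chromosome 10, 88091072 to 88092375, plus strand) split the libraries at the same place. In AL WT it was at 0.283, 106 and 0.115 CPM in libraries 38, 39 and AL_WT_CT0_401 and at 52.5, 87.8 and 22.7 CPM in libraries 47, 48 and AL_WT_CT12_404. In AL KO it ran from 13.9 CPM in library 57 to 38.3 CPM in library 56. In TRF WT it had 0 reads in libraries 1, 2 and 12, and at most 2.14 CPM, in library 11. In TRF KO it had 0 reads in library 20, stood at 0.133 and 67.9 CPM in libraries 21 and 55, and at 30.2, 36.3 and 0.559 CPM in libraries 28, 29 and 30. A count of 0 allowed up to 0.168 to 0.197 CPM in these 4 libraries, taken as 3 counts each, so library 39 was at least 538-fold higher. Such floors cover counting error only. Exons of Pmch overlap Parpbp on the opposite strand, and without a stated strand setting reads of the pair cannot be told apart.

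The widest gap between neighbouring libraries in Pmch lay between 2.14 and 13.9 CPM. It set 13 libraries above (10 AL and 3 TRF) apart from 11 below (2 AL and 9 TRF). Hcrt was at 67.2 CPM or more in each of the 13 and at 17.8 CPM or less in each of the 11. Agrp ran from 3.85 to 12.7 CPM in the 13 and from 0.932 to 2.03 CPM in the 11, and Cartpt from 47.1 to 167 CPM and from 16.1 to 40.7 CPM, so neither overlapped. Pomc ran from 20.5 to 99.9 CPM and from 1.7 to 22.4 CPM and overlapped only through library 38 below and library 55 above. Crh lay the other way round, from 2.67 to 11.1 CPM in the 13 and from 8.05 to 15.6 CPM in the 11, with overlap. For Oxt, Trh, Npy and Gal the ranges overlapped widely. The gap was found in the data and defines no group of the study, so no test was made across it. How many of all tested genes separate these libraries as fully was not counted. The split is therefore not shown to be particular to these peptides.

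**Figure D1:**
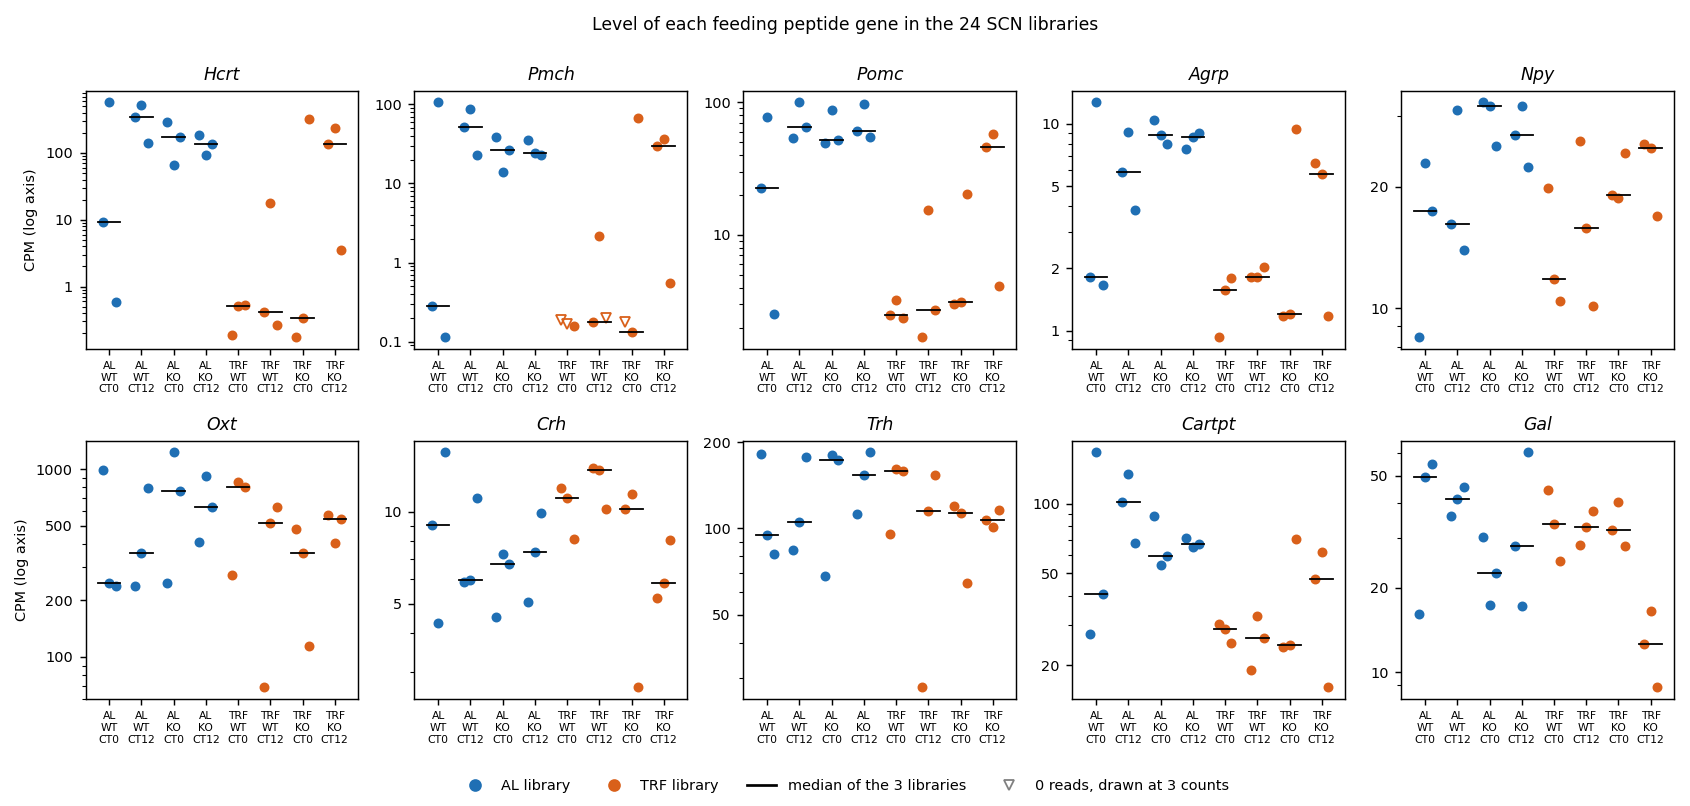
Level of each of the 10 genes in the 24 SCN libraries, in CPM on a log axis, by feeding, genotype and circadian time; each point is a library, lines are medians of 3, and open triangles mark 0 reads, drawn at the level of 3 counts. Hcrt and Pmch fall into a high and a low set of libraries, with 3 TRF libraries (28, 29 and 55) among the high and 2 AL libraries (38 and AL_WT_CT0_401) among the low. In the low set Hcrt runs from 0.176 to 17.8 CPM.

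In the arcuate nucleus, Pomc, the precursor of the melanocortin peptides, ran from 2.54 CPM (library AL_WT_CT0_401) through a median of 57.6 to 99.9 CPM (library 48) under AL, and from 1.7 CPM (library 10) through 3.19 to 57.3 CPM (library 29) under TRF. Most AL libraries were high and most TRF libraries low, and the ranges overlapped. Agrp, the natural antagonist of melanocortin receptors, ran from 1.67 through 8.29 to 12.7 CPM under AL and from 0.932 through 1.81 to 9.39 CPM under TRF. Its gene model is long (chromosome 8, 105566698 to 105637393) and its exons overlap Ctcf on the opposite strand and Gm5914 on the same strand. In hearts other than 3 described separately, and in livers, Agrp still reached 0.949 and 0.67 CPM, beside 0.932 to 2.03 CPM in the low SCN libraries, so its low values are uncertain. Npy, the other peptide of Agrp neurons, varied far less: from 8.48 through 24 to 32.4 CPM under AL and from 10.1 through 18.9 to 26 CPM under TRF. Npy is also made by many neurons outside the arcuate nucleus.

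Among the peptides of the paraventricular nucleus, Oxt ran from 239 through 521 to 1229 CPM under AL and from 69.2 (library 10) through 500 to 859 CPM under TRF. Trh ran from 68.2 through 133 to 184 CPM under AL and from 28 (library 10) through 114 to 161 CPM under TRF. Crh ran from 4.31 through 7.02 to 15.6 CPM under AL and from 2.67 (library 55) through 10.2 to 13.9 CPM under TRF. For each of these 3 genes, AL and TRF libraries covered much the same range. Cartpt, whose peptide curbs eating, ran from 27.2 through 67.6 to 167 CPM under AL and from 16.1 through 27.4 to 70.4 CPM under TRF. Gal ran from 16.2 through 33.1 to 60.5 CPM under AL and from 8.88 through 30.2 to 44.6 CPM under TRF.

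Per kilobase of exon, the order of the median levels over the 24 libraries was Oxt at 931 CPM, Hcrt at 107, Trh at 82.4, Cartpt at 39.8, Gal at 39.6, Npy at 37.3, Pomc at 26.1, Pmch at 24.3, Crh at 6.13 and Agrp at 4.71. The ranges of each pair of neighbours in this order overlapped, and Hcrt alone ran from 0.236 to 766 CPM per kilobase. Under TRF the median of Hcrt was 0.69 CPM per kilobase, below all others but Pmch at 0.223.

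Within groups of the same feeding, genotype and time, Hcrt had a larger SD than any other of the 18133 tested genes, at 2.87 on the log2(CPM + 0.5) scale, against a median of 0.164 over all. Pmch was next at 2.38, with 1 gene above it. Pomc at 1.36, Oxt at 1.07, Agrp at 0.878 and Cartpt at 0.725 had 25, 63, 115 and 216 genes above them. The least variable of the 10 was Npy at 0.473, with 718 genes above it. Of the variance of Hcrt over the 24 libraries, 40.1% lay within groups and 34.7% between the feedings; for Pomc, these shares were 30.1% and 47.4%. Oxt and Trh varied mostly within groups, at 79.2% and 80.7% of their variance, with 3.5% and 5.73% between the feedings.

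Under TRF, 5 of the 10 genes were lower than under AL, averaged over genotype and time: both lateral hypothalamic peptides, Pomc and Agrp of the arcuate nucleus, and Cartpt. The count was taken at an adjusted p under 0.05 by edgeR's quasi-likelihood test over all 18133 genes, of which 16.3% (2956) were called, 1624 higher and 1332 lower. No member was higher, and the median log2 difference of the 10 was -0.81, against -0.00681 over all genes. Hcrt had a log2 difference of -3.87 ± 1.15 (SE; adjusted p = 0.032, edgeR), and Pmch differed by -3.94 ± 1.20 (adjusted p = 0.0353, edgeR). Pomc differed by -2.73 ± 0.53 (adjusted p = 0.00519), Agrp by -1.44 ± 0.40 (adjusted p = 0.0247) and Cartpt by -1.23 ± 0.30 (adjusted p = 0.0134, edgeR). For the other 5 the log2 differences were -0.31 ± 0.19 for Npy, -0.35 ± 0.40 for Oxt, 0.24 ± 0.23 for Crh, -0.27 ± 0.25 for Trh and -0.38 ± 0.22 for Gal, with adjusted p of 0.244 to 0.585 in edgeR. The calls of Pomc and Cartpt held when each of the 24 libraries was left out in turn. Those of Hcrt and Pmch were lost without library 1, 2, 3, 10, 39 or 48, and that of Pmch also without 12, 21, 30, 47, 56, 65 or 66. Without library 39 Hcrt differed by -2.54 (adjusted p = 0.151), Pmch by -2.08 (adjusted p = 0.577) and Agrp by -1.02 (adjusted p = 0.0665, edgeR), and 1839 genes were called; without library 55 Hcrt differed by -6.05 (adjusted p = 0.00373) and Pmch by -6.02 (adjusted p = 0.0043, edgeR). Without library 21, 1953 genes were called. With no filter on low counts the calls of Hcrt, Pmch and Agrp were lost, and with limma-voom those of Hcrt and Pmch.

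**Figure D2:**
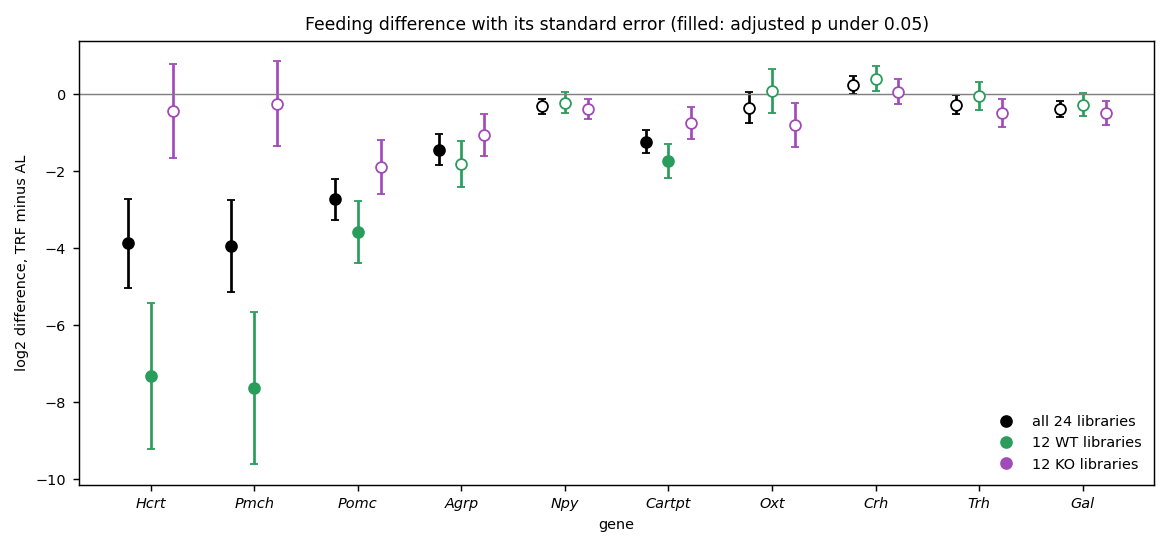
Log2 difference of each gene between TRF and AL, with its standard error, over all 24 libraries and within the 12 WT and 12 KO libraries; filled points had an adjusted p under 0.05 in edgeR. Hcrt and Pmch stand below -7 in WT and at -0.43 and -0.24 in KO, with wide errors.

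Split by genotype, the feeding difference of the lateral hypothalamic pair passed the test in WT and not in KO, where its size depended on the fit. In WT, where 4.83% of all genes were called, 4 members were lower under TRF: Hcrt by a log2 difference of -7.32 ± 1.90 (adjusted p = 0.0402), Pmch by -7.63 ± 1.98 (adjusted p = 0.0402), Pomc by -3.57 ± 0.80 (adjusted p = 0.0282) and Cartpt by -1.73 ± 0.43 (adjusted p = 0.0344, edgeR). In KO, where 0.232% of all genes were called, no member was, and Hcrt differed by -0.43 ± 1.23, Pmch by -0.24 ± 1.11 and Pomc by -1.89 ± 0.70. The KO differences of Hcrt and Pmch were -4.26 and -4.23 with limma-voom, -2.69 and -2.02 with a term for the first principal component within groups, and -2.33 and -1.95 with a term for the striatal marker level, and none of these passed. The deviations of Hcrt and Pmch themselves entered that component. At an unadjusted p under 0.05, 1 member of 10 passed in KO, beside 3160 of all 18133 genes, and limma-voom called 2 members. The difference between the genotypes was itself not significant: the interaction of Hcrt was 6.89 ± 2.30 (adjusted p = 0.953, edgeR), 2 members passed at an unadjusted p under 0.05, and no gene of the 18133 was called (0%), with 883 at an unadjusted p under 0.05 and 1 called by DESeq2 and 1 by limma-voom. Library 55 carried much of it: without it Hcrt differed by -4.77 in KO (adjusted p = 0.148), Pmch by -4.41 (adjusted p = 0.187) and the interaction was 2.54 (adjusted p = 0.995, edgeR). Without library 39 the WT difference of Hcrt was -4.66 (adjusted p = 0.236, edgeR). All 4 WT calls were lost without library 1, 2, 10, 39, 47 or 48, and 1 call was left without library 3 or 12 and 2 without library 28 or 65.

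At each time alone no member passed the test. At CT0, where 0.993% of all genes were called, Pomc differed by -3.24 ± 0.79 (adjusted p = 0.0535, edgeR) between TRF and AL, and at CT12, where 5.81% were called, Cartpt differed by -1.34 ± 0.43 (adjusted p = 0.0699, edgeR). At an unadjusted p under 0.05, 5 members passed at each time, beside 3689 of all 18133 genes at CT0 and 4419 at CT12, and DESeq2 called 3 members at each.

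Circadian time moved none of the 10 genes past the test. Between CT12 and CT0 over both feedings 0.011% of all genes were called, and the largest member difference was in Pomc, at 1.13 ± 0.53 log2 units (adjusted p = 0.625, edgeR), the only member with an unadjusted p under 0.05. Under AL no gene was called (0%), with 714 genes and no member at an unadjusted p under 0.05, and 11 genes called by DESeq2. Under TRF 0.254% of all genes were called, and Gal alone of the members had an unadjusted p under 0.05, at -0.73 ± 0.31 (adjusted p = 0.336, edgeR). For the interaction of feeding and time, 0.0386% of genes were called and no member, with Gal at -1.04 ± 0.43 (adjusted p = 0.473, edgeR). DESeq2 and limma-voom also called no member in these 4 comparisons.

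Between genotypes, averaged over feeding and time, 0.0331% of all genes were called and again no member, although 7 of the 10 had an unadjusted p under 0.05, as did 2032 of all 18133 genes. Npy was at 28.4 ± 4.16 CPM in AL KO and 18.3 ± 7.83 CPM in AL WT, and at 21.6 ± 3.76 CPM in TRF KO and 15.7 ± 6.31 CPM in TRF WT (SD, n = 6 each; log2 difference KO minus WT 0.56 ± 0.19, adjusted p = 0.286, edgeR). Gal stood the other way, at 29.4 ± 16.2 and 23.1 ± 12.3 CPM in AL and TRF KO against 40.6 ± 13.7 and 33.7 ± 6.95 CPM in AL and TRF WT (SD, n = 6 each; -0.60 ± 0.22, adjusted p = 0.32, edgeR). Hcrt and Pmch differed by 2.73 ± 1.16 and 2.98 ± 1.27 (adjusted p = 0.395 for both, edgeR). DESeq2 and limma-voom called no member either.

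How the 10 genes moved together was read within the 13 libraries above the Pmch gap and within the 11 below it, from log2(CPM + 0.5), since a correlation over both sets would mostly repeat the gap. Each set mixes feedings, genotypes and times, and libraries were permuted freely within it. Differences between these groups can therefore enter r and its p. The split was made after the data were seen, on the level of Pmch, itself among the genes correlated. Hcrt and Pmch, of neighbouring lateral hypothalamic cells, varied together in both sets. In the 13 libraries Pearson's r was 0.96 and Spearman's rho 0.96, with p = 1e-05 for each, the smallest that 100000 permutations can give (adjusted p = 2.25e-04 for r over the 45 pairs), and r was 0.92 without the 2 libraries farthest from the Hcrt median. In the 11 libraries r was 0.87 (permutation p = 0.00143, adjusted p = 0.0161), rho was 0.82 (permutation p = 0.00362) and r was 0.90 without the farthest 2. Pmch had 33 reads in library 11, 10 in library 30 and at most 5 in each of the rest of the 11. The relation in this set therefore rests on values near the floor.

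Oxt and Trh, both of the paraventricular nucleus, formed the other tight pair. Their r was 0.92 and rho 0.91 in the 13 libraries (permutation p = 1e-05 and 4.00e-05, adjusted p = 2.25e-04 for r) and 0.98 and 0.97 in the 11 (permutation p = 1e-05 for both, adjusted p = 4.50e-04), and r without the farthest 2 was 0.90 and 0.94. Over all 24 libraries as deviations from group means, r was 0.96 and rho 0.94 (permutation p = 4.00e-05 and 2.80e-04, adjusted p = 9.00e-04 for r). Crh, the third of the nucleus, joined them in the 13 libraries, with r of 0.81 to Oxt and rho of 0.78 (permutation p = 8.00e-04 and 0.00226, adjusted p = 0.0045 for r) and r of 0.86 to Trh and rho of 0.84 (permutation p = 5.00e-05 and 6.30e-04, adjusted p = 7.50e-04 for r). In the 11 its r was -0.66 to Oxt and -0.61 to Trh, with rho of -0.75 for both (permutation p for r = 0.0214 and 0.0311, adjusted p = 0.12 and 0.156), and the difference between the sets was not tested.

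In the 13 libraries Hcrt and Pmch went opposite to Oxt and Trh. Hcrt had r of -0.82 and rho of -0.87 to Oxt (permutation p = 7.80e-04 and 3.00e-04, adjusted p = 0.0045 for r) and -0.72 and -0.79 to Trh (permutation p = 0.00659 and 0.002, adjusted p = 0.0297 for r). Pmch had r of -0.82 and rho of -0.88 to Oxt (permutation p = 5.10e-04 and 1.90e-04, adjusted p = 0.0045 for r) and -0.73 and -0.87 to Trh (permutation p = 0.00527 and 2.90e-04, adjusted p = 0.0263 for r). Without the 2 libraries farthest from the median of Hcrt or Pmch, these r were -0.91, -0.82, -0.79 and -0.74. As deviations over all 24 libraries, the planned measure, none of these 4 pairs passed: r was -0.28 for Hcrt and Oxt, -0.18 for Hcrt and Trh, -0.38 for Pmch and Oxt and -0.29 for Pmch and Trh (adjusted permutation p = 0.41, 0.545, 0.298 and 0.316). Crh was the reverse case: in the 13 libraries its r was -0.56 to Hcrt and -0.66 to Pmch (adjusted permutation p = 0.127 and 0.0543), and over all 24 it was -0.82 and -0.83 (adjusted permutation p = 0.0165 for both). Cartpt went with Hcrt at r of 0.83 and rho of 0.82 (permutation p = 2.20e-04 and 0.00104, adjusted p = 0.00247 for r) and with Pmch at 0.82 and 0.74 (permutation p = 6.40e-04 and 0.00495, adjusted p = 0.0045 for r), with 0.67 and 0.71 without the farthest 2. In the 11 libraries the r of Hcrt to Oxt was 0.34 and to Cartpt 0.05, with adjusted p of 0.666 and 0.971 by permutation.

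Among the arcuate peptides no pair passed the test in either set, while over all 24 libraries, as deviations from group means, Pomc and Agrp did. Their r over the 24 was 0.78 and rho 0.65 (permutation p = 0.00801 and 0.0145, adjusted p = 0.0225 and 0.0408), and the call was lost without library 30, 39, 48 or 55, with r of 0.71, 0.69, 0.77 and 0.74 (adjusted permutation p = 0.0675, 0.0707, 0.0534 and 0.0754). In the 13 libraries r was 0.05 between Pomc and Agrp, 0.22 between Pomc and Npy and 0.66 between Agrp and Npy, with rho of 0.03, 0.20 and 0.35 (permutation p for r = 0.874, 0.446 and 0.0172, adjusted p = 0.914, 0.608 and 0.0594). In the 11 libraries these r were 0.25, -0.46 and -0.51, with permutation p of 0.479, 0.159 and 0.112. Pomc and Hcrt had an r of 0.91 in the 11 libraries (permutation p = 0.00244, adjusted p = 0.022), but a rho of 0.54 (permutation p = 0.0958) and an r of 0.57 without the farthest 2, so the relation rests on those libraries. Npy went against Oxt (r = -0.85 and rho = -0.89, permutation p = 3.70e-04 and 4.30e-04, adjusted p = 0.00555 for r) and Trh (r = -0.81 and rho = -0.83, permutation p = 1.80e-04 and 0.0025, adjusted p = 0.00405 for r) in the 11 libraries, with -0.86 and -0.81 without the farthest 2. In the 13 these r were 0.10 and -0.10 (permutation p = 0.754 and 0.748). Of the 45 pairs, 10 had an adjusted p under 0.05 in the 13 libraries and 5 in the 11. As deviations from group means over all 24 libraries 18 pairs did, but 4 without library 55 and 5 without library 39, each the only library of its group above the gap.

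**Figure D3:**
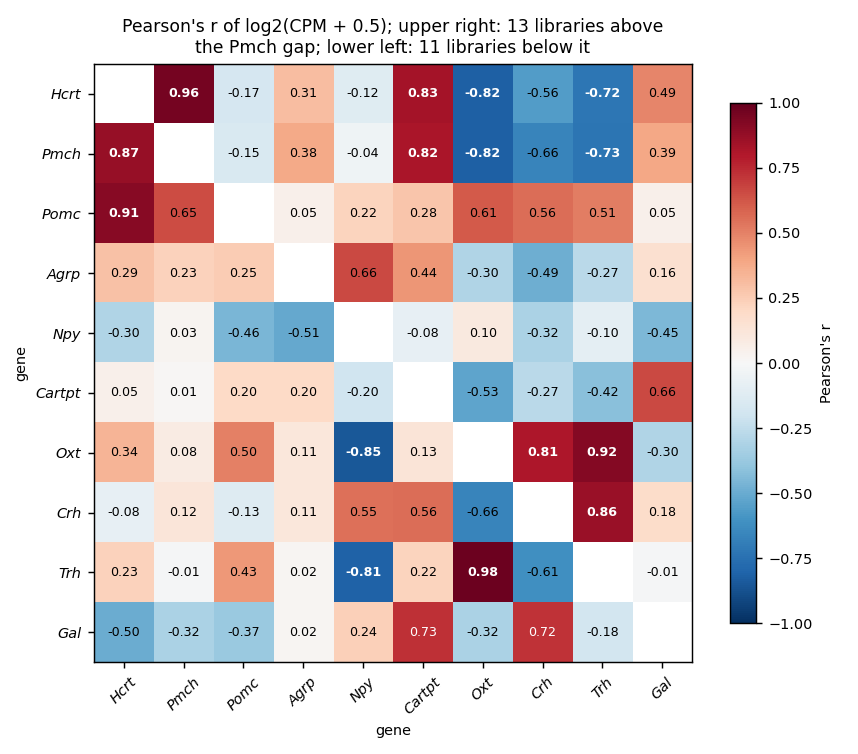
Pearson's r between the 10 genes over libraries, from log2(CPM + 0.5): above the diagonal in the 13 libraries above the Pmch gap, below it in the 11 libraries below the gap, with bold values for an adjusted permutation p under 0.05. Hcrt with Pmch (0.96 and 0.87) and Oxt with Trh (0.92 and 0.98) are high in both sets, and Hcrt with Oxt is -0.82 in the 13 and 0.34 in the 11.

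**Figure D4:**
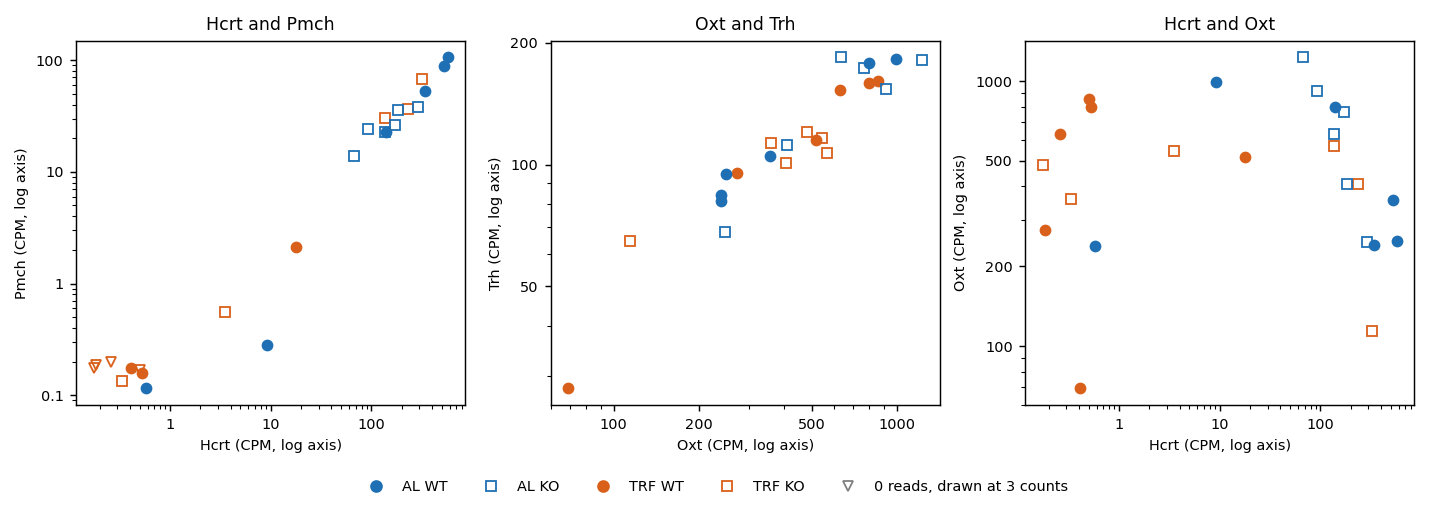
Level of Pmch against Hcrt, Trh against Oxt and Oxt against Hcrt in the 24 SCN libraries, in CPM on log axes; colour marks the feeding, filled circles WT, open squares KO, and open triangles 0 reads of Pmch, drawn at 3 counts. The Hcrt and Pmch points lie in a low and a high cloud on a line, Oxt and Trh form 1 line with library 10 lowest at 69.2 and 28 CPM, and Oxt is lower where Hcrt is highest among the high libraries.

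The genes most like each member were found among 15598 genes of at least 1 CPM on average. They were ranked by Pearson's r of deviations from group means over the 24 libraries. These libraries differed in the summed levels of SCN and striatal markers, and how the SCN was cut out is not given. Whether such differences have a part in the ranking was not tested. By the same measure, the called member pairs fell from 18 to 4 without library 55 and to 5 without library 39. The like genes may rest on single libraries in the same way and are a description only. Hcrt was most like Pmch (0.97), then Nr5a1 (0.95), a transcription factor that marks the ventromedial hypothalamus, and Nkx2-4 (0.94). Pomc was most like Nr5a1 (0.96) and Nr0b1 (0.93), which encodes a nuclear receptor partner of the Nr5a1 product. Agrp was most like Amigo2 (0.96) and Pmch (0.95), with Tbx3 (0.92), an arcuate transcription factor, among its first 5. Cartpt was most like Ghrh (0.97), the growth hormone-releasing hormone of arcuate neurons, and Cited1 (0.96), which was also among the first 5 for Hcrt, Pmch and Agrp. Npy was most like Pdyn (0.90), the dynorphin precursor.
Oxt and Trh were most like each other (0.96) and shared Adcy7, Prr29 and Ptprk. Crh was most like Slc10a4 (0.96) and Ngfr (0.95), which encodes a neurotrophin receptor, with Slc32a1 (0.94), the vesicular transporter of GABA. Gal was most like the homeobox gene Hmx2 (0.88), with Hmx3 (0.84) and Brs3 (0.84), which encodes a receptor tied to energy balance.

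Some markers of nuclei near the SCN were lower under TRF, in a comparison that called 16.3% of all genes. Of 5 markers of the ventromedial and dorsomedial hypothalamus, 4 were lower under TRF by edgeR and the median log2 difference was -1.14. Nr5a1 had a median of 28.1 CPM under AL and 0.666 CPM under TRF (log2 difference -2.89, adjusted p = 0.0112), and Fezf1 and Gpr50 differed by -1.14 and -1.22 (adjusted p = 0.0274 and 0.0252, edgeR). Of 6 genes listed here under the lateral hypothalamus besides the members, 2 were lower and 4 were not called. The 2 were Qrfp (-1.90) and Npvf (-3.54), both precursors of RFamide peptides. These data do not show which nucleus makes Npvf, so its place in this list is uncertain. Of 7 tested arcuate markers besides the members, 4 were lower: Ghrh, Th, Tbx3 and Bsx, a homeobox factor of Agrp neurons, with log2 differences of -1.45, -0.53, -1.07 and -2.95. The other 3 were not called, with Tac2 at 0.45, Lepr at 0.15 and Prlr at 0.01. The summed level of the arcuate list had a median of 119 CPM under AL and 111 CPM under TRF. Rax, a tanycyte factor of the third ventricle floor, was lower by -2.39 (adjusted p = 0.0145, edgeR), as 1 of 2 called among 6 tanycyte and ependymal markers. None of 13 SCN markers and none of 5 paraventricular and supraoptic markers was called by edgeR, with medians of -0.02 and 0.05. Avp stands in both lists. Six6, Syt10 and Rorb of the SCN list and no gene of the other had an unadjusted p under 0.05. DESeq2 called 1 of the SCN markers and limma-voom 3, and neither called one of the paraventricular and supraoptic list. Of 4 tested pituitary markers, Tbx19 alone was called, lower by -2.63 (adjusted p = 0.0144, edgeR), while DESeq2 called 0 and limma-voom 1. Tbx19 had medians of 0.856 CPM under AL and 0.144 CPM under TRF, near the floor, and the list median was 0.05. The summed level of 8 pituitary markers was 1.87 to 9.04 CPM under AL and 1.12 to 9.71 CPM under TRF.

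Some striatal and glial markers were higher under TRF. Of 9 striatal markers 4 were higher by edgeR, among them Ppp1r1b, Drd1 and Adora2a, with log2 differences of 1.83, 1.68 and 2.35, and their list summed to 279 to 986 CPM under AL and 292 to 2314 CPM under TRF. Of 5 microglial markers 4 were higher, led by Csf1r at 0.32 and Tmem119 at 0.30, and the list summed to 147 to 206 CPM under AL and 152 to 232 CPM under TRF. Of 6 oligodendrocyte markers 3 were higher, by 0.19 to 0.27, and of 5 cortical markers Emx1 (0.96). Thalamic, choroid plexus, astrocyte and red cell markers, 5 each, had none called by edgeR; Aldh1l1 of astrocytes and Hbb-bs of red cells had an unadjusted p under 0.05. DESeq2 called 0 in these 4 lists, and limma-voom called 4 red cell, 1 astrocyte, 1 thalamic and 0 choroid plexus markers. Of 6 preoptic markers Moxd1 was higher by 0.97 and 5 were not called, with a list median of -0.13. No marker of these lists was at 0 in every library. With a term for the striatal level, chosen after seeing the data, the feeding differences of Hcrt and Pmch moved from -3.87 and -3.94 to -5.64 and -5.74 (adjusted p = 9.67e-04 and 9.86e-04, edgeR), and those of Pomc, Agrp and Cartpt were -2.93, -1.54 and -1.24. With a term for the SCN marker level Hcrt and Pmch both differed by -3.97 (adjusted p = 0.0327 and 0.0371, edgeR). All 5 members stayed under an adjusted p of 0.05 with either term in edgeR. Both terms were deviations from group means, so they do not adjust for a marker difference between the feedings. Whether tissue content has a part in the feeding difference was therefore not tested.

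**Figure D5:**
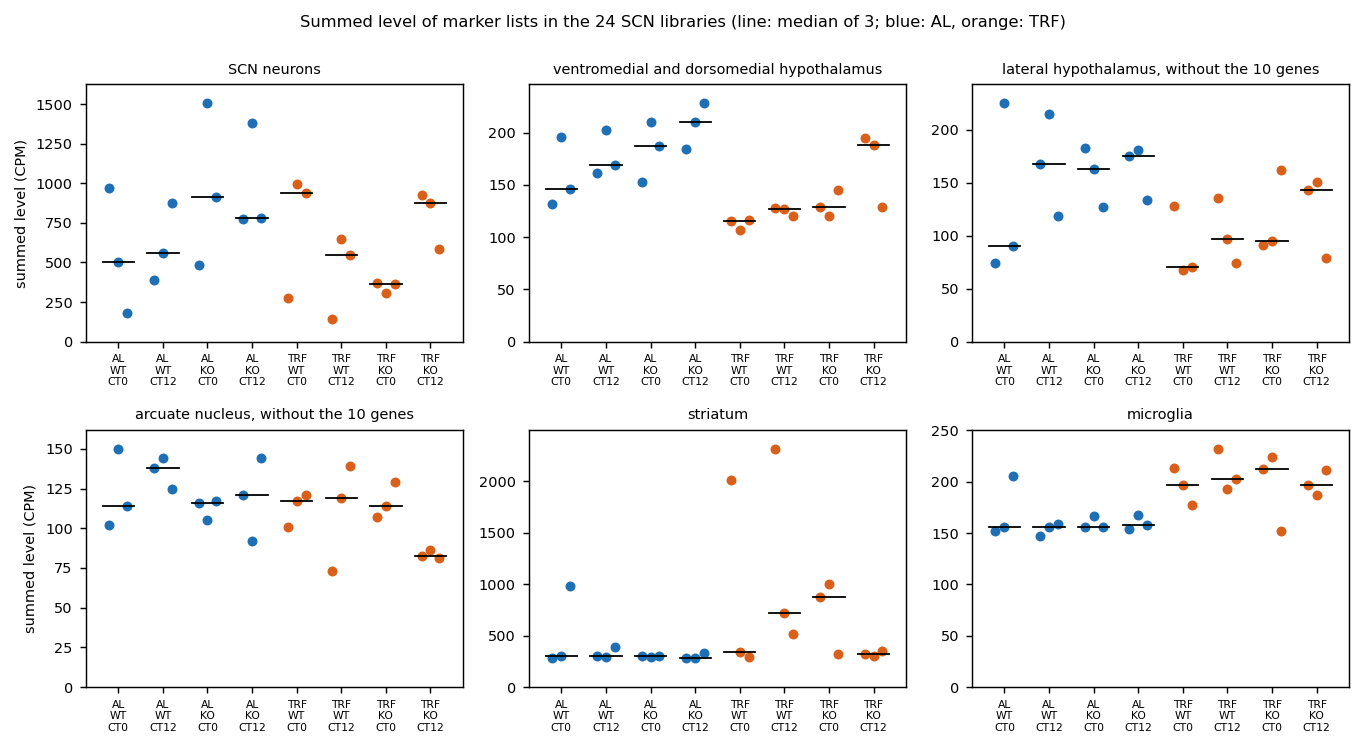
Summed level in CPM of 6 marker lists in the 24 SCN libraries, by feeding, genotype and time; points are libraries and lines medians of 3. The ventromedial and dorsomedial list runs from 132 to 228 CPM under AL and from 107 to 195 CPM under TRF, where libraries 28 and 29 of KO are highest, and the striatal list reaches 2013 and 2314 CPM in libraries 1 and 10.

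Among the receptors for these peptides, 2 of 16 were higher and 1 was lower under TRF by edgeR, with a median log2 difference of -0.09. Mc3r, a melanocortin receptor of the arcuate and ventromedial nuclei, had medians of 11.1 CPM under AL and 5.4 CPM under TRF (-0.92, adjusted p = 0.00205), while Crhr1, a receptor of corticotropin-releasing hormone, had 16.1 and 23.3 CPM (0.47, adjusted p = 0.00552, edgeR). Trhr2 differed by 0.68 (adjusted p = 0.0418, edgeR), and the orexin receptors Hcrtr1 and Hcrtr2 by -0.09 and -0.15 without passing. Of 21 tested precursors of other hypothalamic peptides 5 were lower and none higher: Qrfp, Ghrh, Npvf, Nucb2 (-0.30) and Adcyap1 (-0.70), 3 of which are also in the marker lists. Of 9 genes that cut, amidate or store peptides, 5 were lower by small amounts, Scg5 (-0.19), Chgb (-0.16), Pam (-0.28), Scg2 (-0.22) and the prohormone convertase Pcsk1 (-0.32), with a list median of -0.19.
Of 13 receptors and regulators of metabolic signals, the incretin receptor Gipr (0.45), the insulin receptor Insr (0.22) and Irs1 (0.32) were higher, and Socs3 (-0.53), a feedback inhibitor of leptin signalling, and Stat3 (-0.14), which carries that signal, were lower. Of 11 tested developmental factors of these neurons, 4 were lower, Isl1 (-0.49), Rax, Bsx and Tbx3, the last 3 shared with the marker lists. Of 10 immediate early genes Arc was higher (0.53) and Fos, a marker of neuronal activation, was not called (-0.17, adjusted p = 0.69, edgeR). Beside these shares stands the 16.3% of all genes called in this comparison.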

How the data were processed

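RNA was measured by RNA-seq after TRIzol extraction and NEBNext Ultra II library preparation, per the labels. Per the submitters' processing notes, FastQC 0.11.8 and STAR were used with mm10 (GRCm38); the tool that counted reads, whether it used strand, and the gene annotation are not given in the sources used here. The authors deposited raw read counts per gene for 76 libraries. Columns were matched to libraries by title number and tissue, and 38038 of 38129 entries (99.8%) matched GENCODE vM21, which gave coordinates and exon lengths.

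After filterByExpr on the 8 SCN groups and TMM scaling, edgeR 4.0.16 (R 4.3.3) estimated a mean for each group with robust quasi-likelihood dispersions; 11 contrasts were each adjusted by Benjamini and Hochberg over 18133 genes and called under 0.05. CPM uses TMM factors, and a filter-passing gene may have 0 counts in single libraries. Correlations used a pseudocount of 0.5 CPM and 100000 two-sided permutations (within groups for deviations), adjusted over 45 pairs. The genes named are the 10 members, up to 4 genes with the smallest adjusted p of each list (others only where a count of them is spelled out, chosen after their values were seen), and up to 5 like genes per member.

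The members, lists and libraries doubted were chosen with earlier results of these data known. Alternatives were RLE factors, no filter, DESeq2 1.42.0, limma-voom (limma 3.58.1), other pseudocounts and left-out libraries. Terms for the SCN marker level or the first principal component within groups were also used. The striatal term and the correlations on either side of the Pmch gap were added after seeing the data. Each term varied only within groups. All 24 SCN libraries entered the fits, except where an alternative left libraries out. The tests were checked on simulated data. Liver and heart were used only for the background levels of the members. Values of some single genes are not reported here.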

Additional observations from a re-analysis of the deposited data

Results flagged for a closer look

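Of the 10 peptide genes, 9 also stood out in 3 heart libraries, which no comparison above uses. In the 3 hearts of AL WT CT12 (libraries 47, 48 and AL_WT_CT12_404), 9 of the 10 genes, all but Agrp, were above their level in each of the other 23 hearts, in CPM of the library totals. The lowest of the 3 hearts held 11.9 CPM of Hcrt, 1.39 CPM of Pmch, 3.02 CPM of Pomc, 1.8 CPM of Npy, 4.3 CPM of Cartpt, 31.4 CPM of Oxt, 0.407 CPM of Crh, 9.13 CPM of Trh and 3.54 CPM of Gal. In the other hearts the highest values were 0.307 CPM for Hcrt, 0.0614 CPM for Pmch and 1.11 CPM for Oxt, with 0 reads of Hcrt in 20 of the 23. Hcrt had 233, 363 and 205 reads in hearts 47, 48 and AL_WT_CT12_404. Crh had only 8, 17 and 7 reads there, against at most 4 in each of the other hearts. How many of all genes were higher in these 3 hearts than in every other heart was not counted.

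As a share of the SCN library with the same number, Hcrt stood at 3.83%, 4.3% and 8.54% in hearts 47, 48 and AL_WT_CT12_404, Pmch at 2.58%, 8.97% and 9.91%, and Oxt at 14.6%, 13.7% and 3.91%. In the 26 livers no member but Pomc, Agrp and Gal exceeded 1 read in a library, and the highest level of Hcrt was 0.0589 CPM. A cause for the heart values was not tested.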

How the results depend on the processing

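No paired analysis was possible because the SCN groups compared share no library number. Each of the 5 members called between the feedings kept its direction in all alternatives. The number of members called fell from 5 to 2 (Pomc and Cartpt) with no filter on low counts and without libraries 1 and 10 of TRF WT, and to 3 with limma-voom; leaving out each library in turn gave 2 to 5. In WT, 4 became 1, 0 and 2 under these 3 settings (0 to 5 leaving out each library). In KO, 0 became 2 with limma-voom, 2 with the principal component and 1 with the striatal term. At CT0, 0 became 3 (DESeq2), 2 (limma-voom), 1 (without the 4 AL libraries of 3-digit title numbers, and with the SCN marker term), 4 (without library 55, and with the striatal term) and 5 (principal component), and 0 to 4 leaving out each library. At CT12, 0 became 3 (DESeq2 and limma-voom), 1 (SCN marker term), 5 (principal component) and 4 (striatal term), and 0 to 1 leaving out each library. Between genotypes the principal component term called 1 member, Crh. Calls with this term are not independent of the members, whose own deviations entered the component. In the 5 other comparisons of members the count stayed 0 in all settings run.

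Of all genes, 2956 called between feedings became 5053 with limma-voom and 1554 without libraries 1 and 10 (1839 to 3784 leaving out each library). For time, 2 became 13 (DESeq2), 4 (limma-voom), 0 (without the 3-digit AL libraries) and 1 (without 1 and 10), and 0 to 2. For genotype, 6 became 67 (DESeq2), 124 (limma-voom), 3 (without 1 and 10), 23 (SCN markers), 317 (principal component) and 326 (striatum), and 0 to 19. For feeding by time, 7 became 18 (no filter), 88 (DESeq2), 134 (limma-voom), 44 (without 3-digit), 1 (without 1 and 10), 2 (without 55), 29, 40 and 34 (the 3 terms), and 0 to 48. The causes were not tested.

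The 18 correlated pairs became 5 without the 3-digit AL libraries, 2 and 4 in the AL and TRF libraries alone, and 10 and 5 above and below the Pmch gap (4 to 21 leaving out each library). Relative to deviations over all libraries, r changed sign below the gap for Pomc and Npy (-0.46), Agrp and Npy (-0.51), Oxt and Crh (-0.66), Crh and Trh (-0.61), Hcrt and Oxt (0.34) and Pmch and Oxt (0.08), and above it for Npy and Oxt (0.10). The feeding difference of Pmch in KO ran from -4.41 to 0.05 leaving out each library. Depth limits the low values of Pmch and Hcrt, which rest on 0 and 3 reads in libraries 1 and 20.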
